A study of Mus musculus with 2 samples.

Results

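The genes described here are the semaphorins, plexins, ephrins, Eph receptors, Slits, Robos, netrins and Unc5 receptors of the mouse lung, read in single cells. They were chosen by gene symbol and by a minimum of 10 UMIs (unique molecular identifiers, each standing for 1 captured RNA molecule) over both libraries. Of 27998 genes listed, 70 carried such a symbol and 65 reached the minimum: 34 ligands, 29 receptors and 2 antisense RNAs. Whole lungs of C57BL/6 mice aged 2 weeks were dissociated and sequenced with a 3′ droplet assay after the pups had been reared at an oxygen level of 21% (room air) or 80% (hyperoxia), from the day of birth up to postnatal day 14. Neonatal hyperoxia is used as a model of bronchopulmonary dysplasia, the chronic lung disease of preterm infants, in which alveoli and capillaries are simplified. Each condition was 1 library that pooled the cells of 8 mice, so the mice cannot be separated, nothing was tested between the conditions, and every interval in square brackets is an exact 95% interval for counting error only. Any difference between the libraries that came from handling, dissociation or sequencing cannot be told apart from one that came from oxygen.

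These families were first known as guidance cues of growing axons, and each pairs a ligand with a receptor. Semaphorins signal through plexins, and the secreted class 3 semaphorins mostly do so with neuropilins as co-receptors. Ephrins and Eph receptors both sit in the membrane and signal at contacts between cells, and ephrin-B2 and EphB4 are the textbook pair of arterial and venous endothelium. Slits signal through Robo receptors, and netrins through Unc5 receptors and the related receptors Dcc and neogenin. In the lung the same molecules are known from vessel branching, from the layering of mural cells on vessels, and from signalling between alveolar epithelium and the capillaries beneath it.

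After removal of barcodes with few genes, of barcodes rich in mitochondrial RNA and of likely doublets, 3680 of 4234 barcodes remained in room air and 10472 of 13223 in hyperoxia, with medians of 8070.5 and 7247 UMIs per cell. The raw totals were 39593888 and 111934936 UMIs. The libraries shared 17 barcodes, 13 of them among the cells kept. Cells were clustered without the 65 genes and named from marker lists, giving endothelial-like (1044 cells in room air and 2574 in hyperoxia), stromal-like (853 and 2618), epithelial-like (287 and 1217), myeloid-like (757 and 1406) and lymphocyte-like (739 and 2657) lineages and finer types within them. Levels are given as CPM, the UMIs of a gene in all cells of a class and library, scaled to counts per 1e6 UMIs of that class and library. Where a pair of levels is given without labels, room air comes first. Several types were split between clusters by library. Of the gCap-like (general capillary) cells, a cluster of 612 cells led by Wif1 and Kit held 591 from room air, and clusters of 474 and 291 cells held 467 and 282 from hyperoxia. Among alveolar fibroblast-like cells, clusters of 538 and 514 cells held 2 and 4 from room air, and a cluster of 170 cells held 2 from hyperoxia. Myofibroblast-like clusters of 375 and 227 cells held 7 and 204 from room air. The levels of these types below therefore largely compare different clusters in the 2 libraries.

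Most of the genes read above a low level had the same leading cell type in both libraries, but fewer had one that stood clear of the next type. In 1 or more classes, 48 of the 65 passed a filter on low values (a mean of at least 10 CPM over the 2 libraries and at least 50 UMIs in the class). Only types with at least 50 cells in each library were ranked, so vein-like, lymphatic-like, club-like and dendritic-like cells, among others, could not lead, here or below. Among the ranked types, the one with the highest level was the same in both libraries for 36 of the 48. The lineage with the highest summed level was the same for 42. For 24 of the 48, one and the same type stood above the next type in both libraries with counting intervals that did not meet. In room air the leading lineage by summed level was endothelial for 18 genes, stromal for 20, epithelial for 6, myeloid for 3 and lymphocyte for 1. In hyperoxia these numbers were 21, 16, 8, 1 and 2. The 6 genes whose leading lineage by that measure differed between the libraries were Efna4, Plxna4, the antisense RNA Plxna4os1, Ntn4, Sema4d and Plxnb2. Because the assay counts 3′ ends and not length-normalised transcripts, levels are compared within a gene and not between genes.

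**Figure D1:**
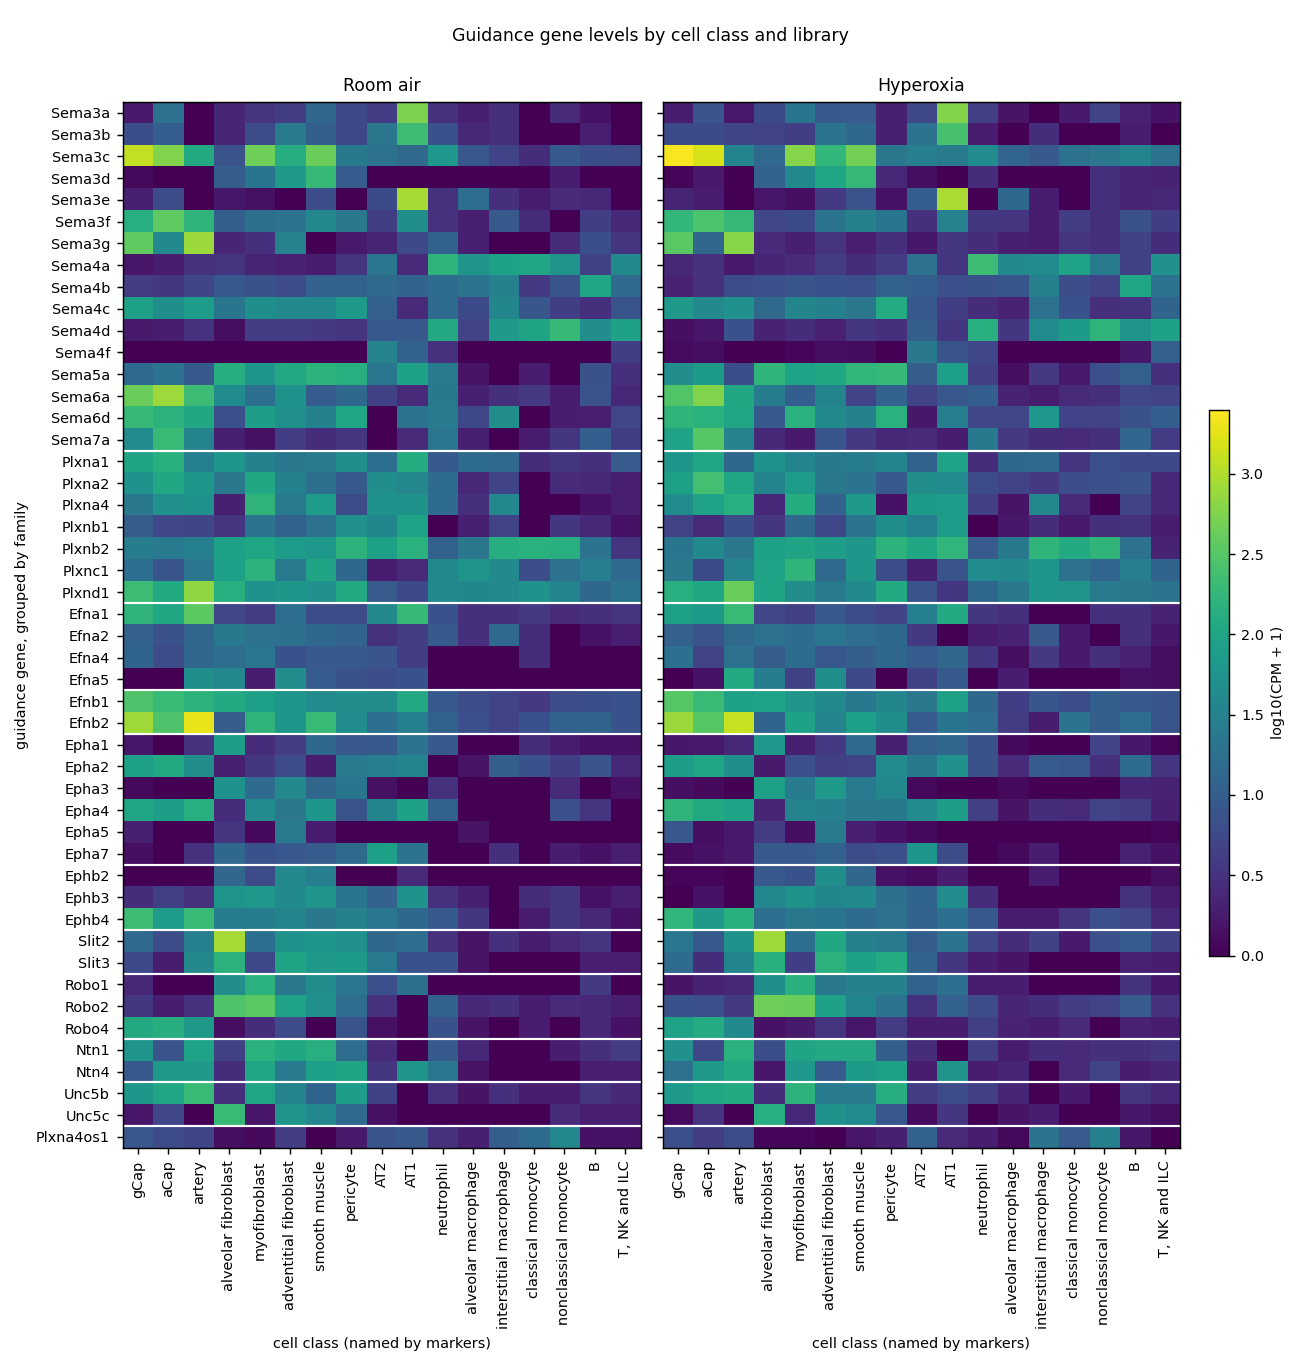
Heatmap of the 48 genes past the low-value filter (rows) in 17 cell types (columns), room air on the left and hyperoxia on the right, coloured by log10(CPM + 1). Most rows have their highest value in the same column in both panels, with 36 of 48 leading types shared.

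The endothelial semaphorins differed between the libraries by vessel type, and Sema3c was highest in gCap-like cells of both libraries. Sema3c (chromosome 5, bases 17574281 to 17730268, forward strand, GRCm38), a secreted class 3 semaphorin, was read at 1212 CPM in the room air library [1182 to 1243] and 2322 CPM in the hyperoxia library [2289 to 2357] in gCap-like cells. In aCap-like cells (aerocytes, the wide capillary cells that lie against alveolar type 1 epithelium) it was read at 567 CPM in the room air library [525 to 611] and 1582 CPM in the hyperoxia library [1555 to 1608], a log2 ratio of 1.48 [1.37 to 1.59]. In artery-like cells the order was the other way round, with 114 CPM in the room air library [85.9 to 148] and 32.9 CPM in the hyperoxia library [24.2 to 43.7] and a log2 ratio of -1.79 [-2.38 to -1.205]. Both capillary types were thus higher and the artery-like cells lower in the hyperoxia library, beyond counting error. Sema3c in gCap-like cells stayed under 2-fold at log2 0.94 [0.90 to 0.98]. With each cell thinned to 2000 UMIs, 73.5% of gCap-like cells in room air and 89.8% in hyperoxia held a Sema3c UMI, against 59.8% and 88.6% of aCap-like and 11.5% and 3.65% of artery-like cells. In B-like cells, where the gene is not expected, the shares were 1.07% and 4.85% (median depths of 4496 and 2935 UMIs before thinning, against 7368 and 8588 in gCap-like cells), so the capillary shares lay well above that background in both libraries.

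The Sema3c levels of gCap-like cells came largely from different clusters in the 2 libraries. The 591 room air cells of the Wif1 and Kit cluster had 1208 CPM, and its 21 hyperoxia cells 1409 CPM. The hyperoxia cells of the clusters of 474 and 291 had 2684 and 1802 CPM. The cluster of 198 cells held both libraries, and there the 51 room air cells had 1454 CPM [1224 to 1714] and the 147 hyperoxia cells 2763 CPM [2611 to 2921]. In artery-like cells, the gCap marker genes Gpihbp1 (219 and 70.7 CPM) and Kit (69.1 and 23.8 CPM) were lower in hyperoxia, the same direction as Sema3c there. The aCap marker Car4 was not lower, at 6.09 and 7.70 CPM (log2 0.34 [-1.58 to 2.82]). These markers summed to 295 CPM under room air but 102 CPM under hyperoxia, log2 -1.53, most of it Gpihbp1. Other capillary markers were not read there, and the part of capillary RNA in the Sema3c result was not tested. The log2 ratio of Sema3c in artery-like cells ran from -2.24 to -0.44 over the alternatives of processing, weakest with double the rate of doublet removal.

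Sema7a (chromosome 9, bases 57940112 to 57962865, forward strand), a membrane-anchored semaphorin read by plexin C1 and by integrins, was chiefly an aCap gene in both libraries. Its levels were 192 CPM in the room air library [168 to 219] and 331 CPM in the hyperoxia library [319 to 344] in aCap-like cells and 42.95 CPM in the room air library [37.5 to 49.03] and 89.97 CPM in the hyperoxia library [83.4 to 96.9] in gCap-like cells, where the log2 ratio was 1.07 [0.85 to 1.29]. The artery-like cells showed 32.5 CPM in the room air library and 31.5 CPM in that of hyperoxia, with overlapping intervals. Sema5a (chromosome 15, bases 32244810 to 32696341, forward strand), a transmembrane semaphorin with thrombospondin repeats, was low in capillaries of the room air library and higher in those of hyperoxia. It had 13.7 CPM in the room air library [10.7 to 17.3] and 45.3 CPM in the hyperoxia library [40.7 to 50.3] in gCap-like cells and 18.6 CPM in the room air library [11.7 to 28.2] and 71.1 CPM in the hyperoxia library [65.5 to 76.98] in aCap-like cells, log2 ratios of 1.72 [1.35 to 2.11] and 1.93 [1.32 to 2.62]. In artery-like cells Sema5a was 8.12 CPM in the room air library and 5.60 CPM in that of hyperoxia. The mural and stromal cells carried far more Sema5a than any of these, up to 158 and 178 CPM in smooth muscle-like and 139 and 189 CPM in pericyte-like cells. In the endothelial-like cells 6 genes taken as stromal summed to 750.1 and 1023 CPM (log2 0.45), and Mgp alone held 472.8 and 838.4 CPM. Mgp was also among the genes that led the artery-like cluster, so it does not mark stroma alone. Dcn (1.48) and Mgp (0.83) were higher in hyperoxia, Col1a1, Col1a2, Col3a1 and Mfap4 lower (-0.84 to -0.48), and none was at 0. With the cells that held a UMI of any of the 6 left out, the endothelial log2 ratio of Sema5a was 1.35 against 1.83 in all endothelial-like cells. The former lay below the counting interval of the latter and was still past 2-fold. Because of Mgp, the cells left out can include artery-like ones.

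A pair of A-class plexins were higher with them. Plxna2 (chromosome 1, bases 194618218 to 194816869, forward strand), a receptor for class 3 and class 6 semaphorins, stood at 110.0 CPM in the room air library [91.9 to 131] and 240.1 CPM in the hyperoxia library [229.7 to 251] in aCap-like cells, log2 1.13 [0.87 to 1.39]. It had 52.8 and 84.98 CPM in gCap-like and 62.97 and 101 CPM in artery-like cells. Plxna4 (chromosome 6, bases 32144268 to 32588192, reverse strand), a receptor shared by Sema3a and class 6 semaphorins, passed 2-fold in artery-like cells, with 54.8 CPM in the room air library [36.1 to 79.8] and 136 CPM in the hyperoxia library [117 to 156], log2 1.31 [0.72 to 1.95]. In gCap-like cells it was 21.8 and 43.5 CPM and in aCap-like cells 50.8 and 89.3 CPM. All 3 endothelial types therefore held more Plxna4 and more Plxna2 in the hyperoxia library, though only 1 type passed 2-fold for each.

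Sema3c, Sema5a and Sema7a aside, the semaphorins past the filter in the compared endothelial types were 2-fold lower in 1 type or within 2-fold in all of them. Sema3g, a class 3 semaphorin of arterial endothelium, had 782 and 617 CPM in artery-like cells and 369 and 337 CPM in gCap-like cells, but 41.5 CPM in the room air library [30.7 to 54.8] and 12.2 CPM in the hyperoxia library [9.97 to 14.8] in aCap-like cells, log2 -1.76 [-2.27 to -1.24]. Over the alternatives that last ratio ran from -2.58 with double the rate of doublet removal to -0.48 with none, so its size depends on how doublets were treated. Sema6a, a transmembrane semaphorin that binds plexins A2 and A4, was highest in aCap-like cells at 793 and 571 CPM. It was lower in hyperoxia in each endothelial type, with 426 and 296 CPM in gCap-like and 215 CPM in the room air library [176 to 260.4] and 105 CPM in the hyperoxia library [88.9 to 123] in artery-like cells, log2 -1.04 [-1.40 to -0.66]. Sema3f, a class 3 semaphorin that binds neuropilin 2, led in aCap-like cells at 357 and 276 CPM, with 133 and 175 CPM in gCap-like cells. Sema6d was 191 and 167 CPM in gCap-like cells, and Sema4c, a ligand of plexin B2, was 86.9 and 68.98 CPM. Sema3a was scarce in endothelium, and its 17.8 and 6.88 CPM in aCap-like cells came from 21 and 58 UMIs (log2 -1.37 [-2.11 to -0.57]). Over the alternatives the ratio ran from -1.39 to -0.47 for Sema6a in artery-like and from -1.53 to -0.73 for Sema3a in aCap-like cells, so both were under 2-fold in some.

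**Figure D2:**
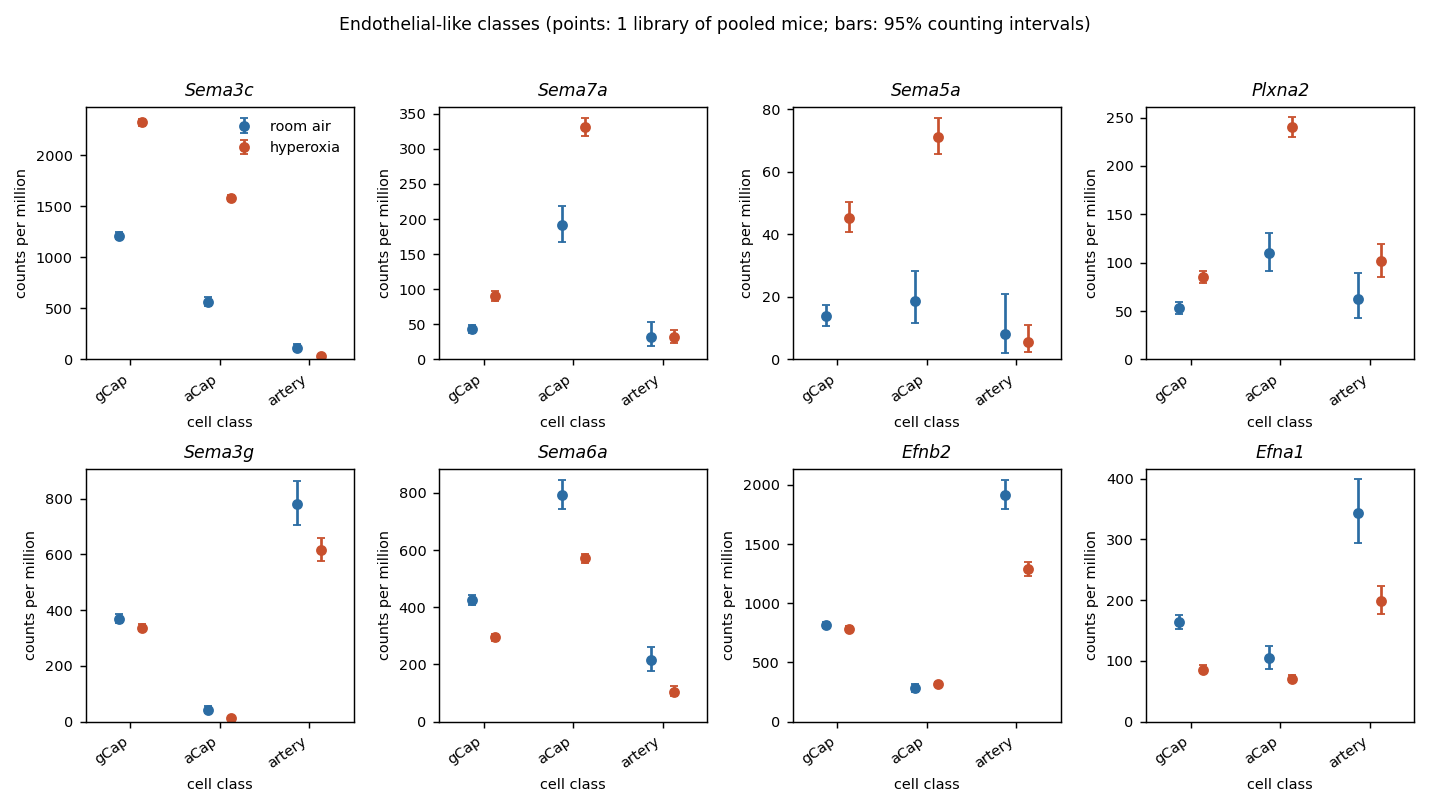
Levels (CPM) of 8 guidance genes in gCap-like, aCap-like and artery-like cells of the room air and hyperoxia libraries, with 95% counting intervals as bars. Sema3c reads 1212 against 2322 CPM in gCap-like cells and 114 against 32.9 CPM in artery-like cells, and Sema7a and Plxna2 are highest in aCap-like cells of both libraries.

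The 4 genes below were the semaphorins and the plexin that were higher in both capillary types of the hyperoxia library and at least 2-fold higher in 1 of them or both, and their promoters are shown to let the start regions of genes that differed together be read side by side (RefSeq sequences, GRCm38.p6). A promoter was found for 54 of the 65 genes, and not for Plxna4. Each run of 300 bases spans 250 bases before to 50 after the annotated start, 5′ to 3′ on the strand of the gene. For Plxna2 and Sema3c that start lies downstream of the gene start given above, which comes from another annotation, and the window does not cover the latter. Capitals mark matches, on either strand, to ACGTG, the core bound by hypoxia-inducible factors, or to TGACNNNGC, the core of the antioxidant response element. Sema5a lies at chr15:32244563-32244862, Sema7a at chr9:57939862-57940161, Plxna2 at chr1:194619579-194619878 and Sema3c at chr5:17574566-17574865, all on the forward strand.
Sema5a: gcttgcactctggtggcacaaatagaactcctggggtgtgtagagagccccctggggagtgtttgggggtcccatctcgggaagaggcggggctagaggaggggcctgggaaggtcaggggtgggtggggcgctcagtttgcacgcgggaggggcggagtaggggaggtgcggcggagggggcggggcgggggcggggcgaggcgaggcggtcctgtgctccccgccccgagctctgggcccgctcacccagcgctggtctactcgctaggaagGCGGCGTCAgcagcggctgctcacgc
Sema7a: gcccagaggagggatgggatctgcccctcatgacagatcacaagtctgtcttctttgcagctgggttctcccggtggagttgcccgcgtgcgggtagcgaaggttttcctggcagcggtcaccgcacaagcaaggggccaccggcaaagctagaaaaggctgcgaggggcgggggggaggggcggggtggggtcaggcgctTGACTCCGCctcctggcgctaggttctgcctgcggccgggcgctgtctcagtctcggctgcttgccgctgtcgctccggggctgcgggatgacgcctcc
Plxna2: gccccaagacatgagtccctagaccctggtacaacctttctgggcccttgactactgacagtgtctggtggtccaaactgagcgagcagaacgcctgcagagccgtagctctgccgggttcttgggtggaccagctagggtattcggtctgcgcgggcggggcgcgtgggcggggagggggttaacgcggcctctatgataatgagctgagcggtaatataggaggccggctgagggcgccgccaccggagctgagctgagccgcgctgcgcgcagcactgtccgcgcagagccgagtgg
Sema3c: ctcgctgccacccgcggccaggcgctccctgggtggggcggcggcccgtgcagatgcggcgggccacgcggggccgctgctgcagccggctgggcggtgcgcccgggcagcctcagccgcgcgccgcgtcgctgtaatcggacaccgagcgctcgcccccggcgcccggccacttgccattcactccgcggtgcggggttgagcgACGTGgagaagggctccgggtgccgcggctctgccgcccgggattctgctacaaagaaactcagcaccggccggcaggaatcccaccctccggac
The windows of Sema5a and Sema7a each held 1 TGACNNNGC match, that of Sema3c held 1 ACGTG match, and that of Plxna2 held none of either. Over all 32851 promoters of that length in the table, 19.6% held ACGTG and 12.4% held TGACNNNGC, and among the 70 promoters listed for those 54 guidance genes, some of which have more than 1, the shares were 18.6% and 12.9%. A match describes the letters in this window and not a bound site. The 4 windows were rich in G and C, at 71.3%, 67.3%, 64.7% and 75.7% in the order printed.

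At the level of whole lineages, few of the guidance genes passed 2-fold. In endothelial-like cells, 27 passed the filter, of which 4 were at least 2-fold higher in hyperoxia, against 1.82% of all genes tested the same way, and 0 were 2-fold lower, against 3.17%. The 4 were Sema5a (13.97 and 49.6 CPM, log2 1.83 [1.55 to 2.12]), Sema7a (60.8 and 181 CPM, log2 1.57 [1.44 to 1.71]), Plxna2 (61.8 and 152 CPM, log2 1.30 [1.16 to 1.43]) and Plxna4 (33.5 and 70.5 CPM, log2 1.07 [0.89 to 1.26]). The median log2 ratio of the 27 was 0.00, as over all genes, while the median size of the log2 ratio was 0.43 against 0.25. In stromal-like cells 33 passed the filter, and 1 was 2-fold higher (1.62% of all genes) and 2 were 2-fold lower (1.3%). Their median log2 ratio was -0.15 against 0.00, and the median size 0.46 against 0.19. In epithelial-like cells 24 passed, 0 were 2-fold higher (1.1%) and 1 was 2-fold lower (4.52%), with a median size of 0.37 against 0.25. Of 8 myeloid genes 0 were called, against 1.32% higher and 2.47% lower over all genes. Of 6 lymphocyte genes 1 was higher, against 0.946%, and 0 were lower, against 0.618%. The median size of the ratio was thus above that of all genes in each of these 3 lineages, without matching for level, and the counts called were small enough that 1 or 2 genes set each share. Over the alternatives of processing, Sema5a, Sema7a and Plxna2 stayed past 2-fold in endothelial-like cells, and Plxna4 ran from 0.90 to 1.19.

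**Figure D3:**
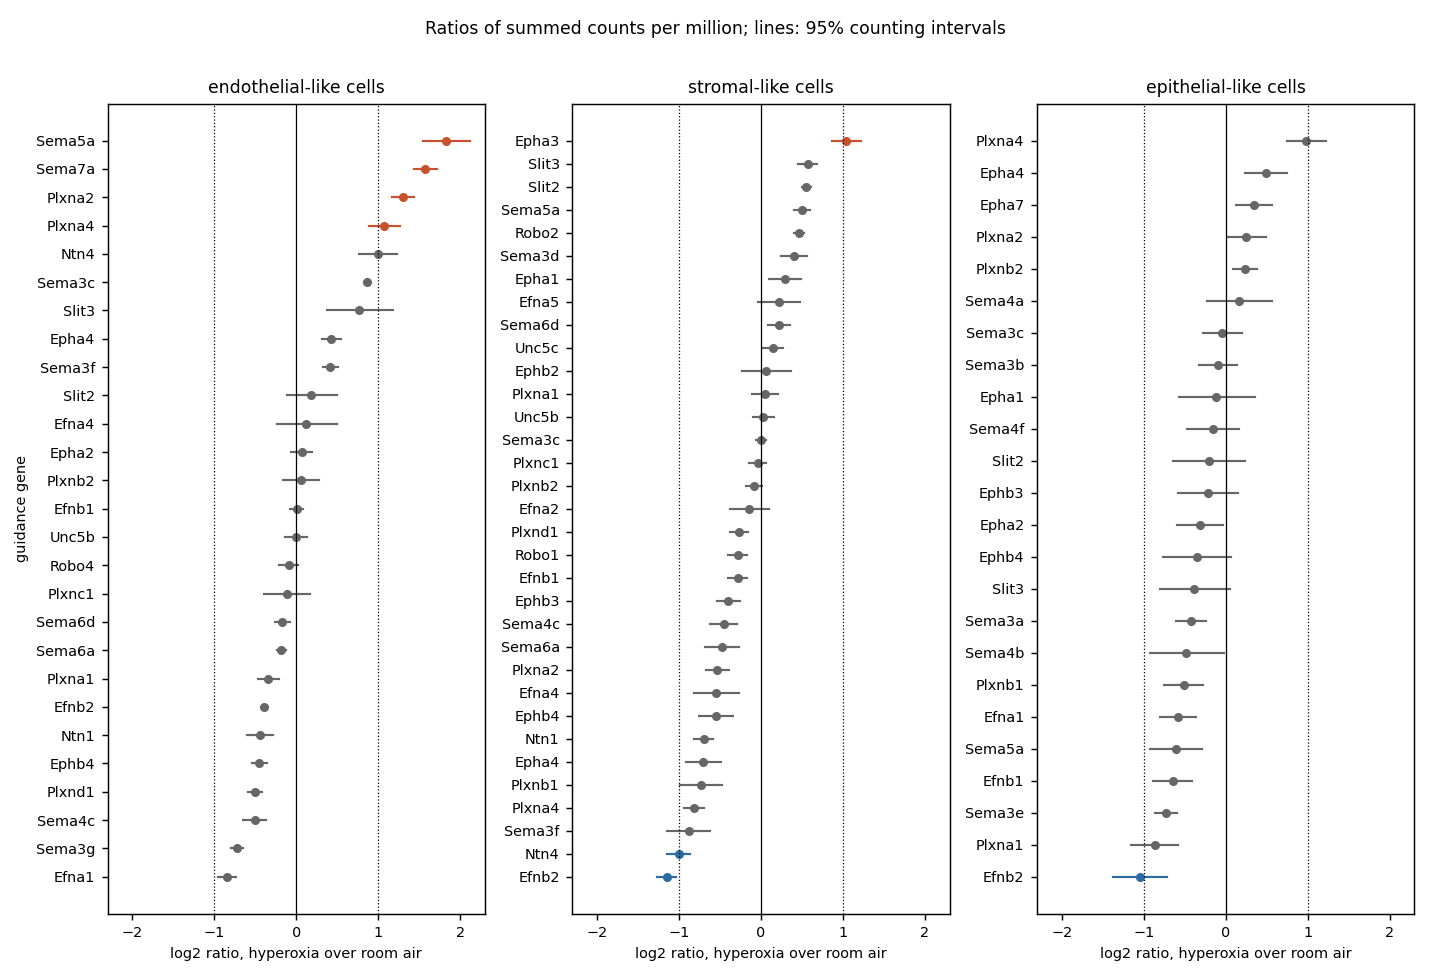
Log2 ratio of hyperoxia over room air for the guidance genes past the filter in endothelial-like, stromal-like and epithelial-like cells, with 95% counting intervals as bars and dotted lines at 2-fold. In the endothelial panel Sema5a, Sema7a, Plxna2 and Plxna4 lie right of the upper line and none lies left of the lower line.

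Within the endothelial types, 26 genes passed the filter in gCap-like cells, 3 of them 2-fold higher (1.9% of all genes) and 0 lower (2.49%). The 3 were Sema5a, Sema7a and Ntn4, and the 5 largest ratios belonged to Sema5a, Ntn4, Sema7a, Plxna4 and Sema3c (log2 1.72 to 0.94) and the 5 smallest to Efna1, Plxna1, Plxnd1, Sema6a and Plxnb2 (log2 -0.93 to -0.36). Ntn4 was under 10 CPM in gCap-like cells of room air and passed the filter through hyperoxia, which favours a large ratio. In aCap-like cells 23 passed, 3 were 2-fold higher (2.32%) and 2 lower (2.58%), and the 5 largest ratios belonged to Sema5a, Sema3c, Plxna2, Plxna4 and Sema7a (log2 1.93 to 0.79) and the 5 smallest to Sema3g, Sema3a, Efna1, Plxna1 and Sema6a (log2 -1.76 to -0.47). In artery-like cells 24 passed, 2 were 2-fold higher (4.78%) and 2 lower (2.02%), and the 5 largest ratios belonged to Plxna4, Efna5, Slit2, Ntn4 and Plxna2 (log2 1.31 to 0.69) and the 5 smallest to Sema3c, Sema6a, Efnb1, Efna1 and Robo4 (log2 -1.79 to -0.75). Sema3c was thus among the highest ratios of both capillary types and had the lowest ratio of the artery-like cells. Plxna1, a plexin that serves class 3 and class 6 semaphorins, was lower in capillaries, with 95.1 and 61.6 CPM in gCap-like and 145 and 100.5 CPM in aCap-like cells. Plxnd1, the endothelial receptor of Sema3e, was highest in artery-like cells at 676 and 426 CPM and stood at 212 and 137 CPM in gCap-like cells.

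Among the ephrin and Eph genes, Efnb2 and its receptor Ephb4 differed between the vessel types in both libraries. Efnb2 (ephrin-B2; chromosome 8, bases 8617434 to 8661242, reverse strand) was highest in artery-like cells, with 1919.5 CPM in the room air library [1799 to 2046] and 1288 CPM in the hyperoxia library [1229.6 to 1348]. It followed in gCap-like cells at 819 and 784 CPM and in aCap-like cells at 283 and 321 CPM, and the order of the 3 types was the same in both libraries. Ephb4, the receptor of ephrin-B2, was at 213 and 170.3 CPM in gCap-like, 197 and 142 CPM in artery-like and 71.9 and 67.1 CPM in aCap-like cells. In the vein-like cells, too few in room air for a ratio (34 and 112 cells), Ephb4 had 252 and 316 CPM, above the gCap-like values. Efnb1, the ephrin-B1 ligand, led in gCap-like cells in both libraries, at 280.1 and 322 CPM.

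The A-type ephrins differed in direction. Efna1, an ephrin known to be induced by inflammatory cytokines in endothelium, had 343 CPM in the room air library [293 to 399] and 199 CPM in the hyperoxia library [176 to 223] in artery-like cells. It was also lower in gCap-like cells, at 164 and 85.7 CPM, and in aCap-like cells, at 105 and 70.7 CPM, and its lineage ratio was log2 -0.84 [-0.95 to -0.74]. Among its receptors EphA2 was steadier, with Epha2 at 83.7 and 77.7 CPM in gCap-like and 117 and 103 CPM in aCap-like cells. Efna5, by contrast, was higher in artery-like cells of the hyperoxia library, at 48.8 CPM in the room air library [31.2 to 72.5] and 120.4 CPM in the hyperoxia library [103 to 139.8], log2 1.30 [0.68 to 1.99] (0.73 to 2.08 over the alternatives). In gCap-like cells Efna5 had 0 UMIs in both libraries, which allows up to 0.588 CPM (3 counts) under room air and 0.384 CPM under hyperoxia. Epha4, a receptor of both ephrin classes, was 103 and 163 CPM in gCap-like, 77.8 and 114 CPM in aCap-like and 136 and 92.4 CPM in artery-like cells. Efna4 was low throughout, led by myofibroblast-like cells in room air (20.9 CPM) and artery-like cells in hyperoxia (18.2 CPM).

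In the stroma the ephrins and Eph receptors divided the cell types differently. Efnb2 was a gene of contractile cells there, at 199 CPM in the room air library [174 to 226] and 82.9 CPM in the hyperoxia library [73.4 to 93.3] in smooth muscle-like cells (log2 -1.26 [-1.52 to -1.0005]) and 160.2 and 88.4 CPM in myofibroblast-like cells. Over the stromal lineage it had 100.3 and 45.2 CPM, log2 -1.15 [-1.27 to -1.04], 1 of the 2 genes 2-fold lower. The smooth muscle-like cells were 2 clusters of different level: 278 and 141 CPM in the cluster with 57 and 126 cells, and 39.8 and 37.5 CPM in the cluster with 30 and 154 cells. The difference in Efnb2 was thus present within 1 of the clusters, and the libraries also differed in how the type was divided between them. When each library was clustered and named by itself, other cells made up the type and the ratios of Efnb2, Epha4 and Ephb2 in smooth muscle-like cells were 0.059, 0.57 and 0.44, so their lower levels there depended on which cells made up the type. Epha4 had 60.1 CPM in the room air library [46.6 to 76.2] and 21.9 CPM in the hyperoxia library [17.1 to 27.5] in smooth muscle-like cells, log2 -1.46 [-1.96 to -0.96], and 6.67 CPM in the room air library [3.05 to 12.7] and 22.4 CPM in the hyperoxia library [16.4 to 29.9] in pericyte-like cells, log2 1.75 [0.70 to 2.96], the opposite order. The pericyte value in room air rested on 9 UMIs and was under 10 CPM, so Epha4 passed the filter there through hyperoxia, which favours a large ratio. Ephb2, a receptor of B-type ephrins, led in adventitial fibroblast-like cells at 38.8 and 49.1 CPM and had 27.4 and 12.4 CPM in smooth muscle-like cells, log2 -1.14 [-1.85 to -0.42]. Ephb4 aside, Ephb3 was the other EphB receptor past the filter, led by myofibroblast-like cells at 63.3 and 55.1 CPM.

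Of the EphA receptors past the filter, Epha3, Epha1 and Epha5 were highest in fibroblasts. Epha3 (chromosome 16, bases 63543534 to 63864175, reverse strand), a receptor of A-type ephrins, was the 1 guidance gene 2-fold higher in the stromal lineage, at 27.01 CPM in the room air library [24.1 to 30.2] and 55.4 CPM in the hyperoxia library [52.8 to 58.2], log2 1.04 [0.86 to 1.22]. It was higher in each stromal type: 55.3 and 84.99 CPM in alveolar fibroblast-like, 38.8 and 65.4 CPM in adventitial fibroblast-like, 20.02 and 36.1 CPM in pericyte-like, 14.2 and 23.3 CPM in myofibroblast-like and 12.4 and 24.3 CPM in smooth muscle-like cells. None of these types passed 2-fold by itself, and the lineage ratio ran from 0.98 to 1.10 over the alternatives. Epha1 was read mostly in alveolar fibroblast-like cells at 78.3 and 63.6 CPM, and Epha5 in adventitial fibroblast-like cells at 24.1 and 23.2 CPM. Of the ephrins, Efna2 led in alveolar fibroblast-like cells of room air at 22.7 CPM and adventitial fibroblast-like cells of hyperoxia at 20.4 CPM.

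Slit2 (chromosome 5, bases 47983138 to 48307733, forward strand), a secreted Robo ligand, was a gene of alveolar fibroblast-like cells above all others, with 872 CPM in the room air library [839 to 906] and 813 CPM in the hyperoxia library [798 to 829] there. The next types were at 60.1 CPM in room air (smooth muscle-like) and 104 CPM in hyperoxia (adventitial fibroblast-like). Over the stromal lineage Slit2 was higher in hyperoxia, at 255 and 374 CPM, though in alveolar fibroblast-like cells themselves the ratio was log2 -0.10 [-0.16 to -0.04]. It was lower in smooth muscle-like cells, at 60.1 CPM in the room air library [46.6 to 76.2] and 28.8 CPM in the hyperoxia library [23.3 to 35.3], log2 -1.06 [-1.52 to -0.59], and in pericyte-like cells, at 50.4 CPM in the room air library [39.1 to 63.9] and 24.9 CPM in the hyperoxia library [18.5 to 32.7], log2 -1.02 [-1.57 to -0.48]. With each library clustered by itself, the ratios of Slit2 in these 2 types were 1.05 and 0.43, the opposite direction. In adventitial fibroblast-like cells it was just under 2-fold higher, log2 0.99 [0.56 to 1.45]. Slit3 was shared between alveolar (151 and 142 CPM) and adventitial fibroblast-like cells (96.5 and 154 CPM), with 70.4 and 124 CPM in pericyte-like cells.

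Robo1 and Robo2 were stromal receptors, and Robo4 was an endothelial one. Robo2 was read in myofibroblast-like cells at 342 and 431 CPM and in alveolar fibroblast-like cells at 293 CPM in the room air library [274 to 313] and 448 CPM in the hyperoxia library [436 to 459], and the leading type of the 2 differed between the libraries. Robo1 was mostly in myofibroblast-like cells, at 147 and 141 CPM, against 45.7 and 47.6 CPM in alveolar fibroblast-like cells. Robo4, the endothelial Robo that stabilises vessels, was 129 and 123 CPM in aCap-like, 115 and 90.7 CPM in gCap-like and 67.03 and 39.9 CPM in artery-like cells. None of the Robo receptors passed 2-fold in a compared class.

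**Figure D4:**
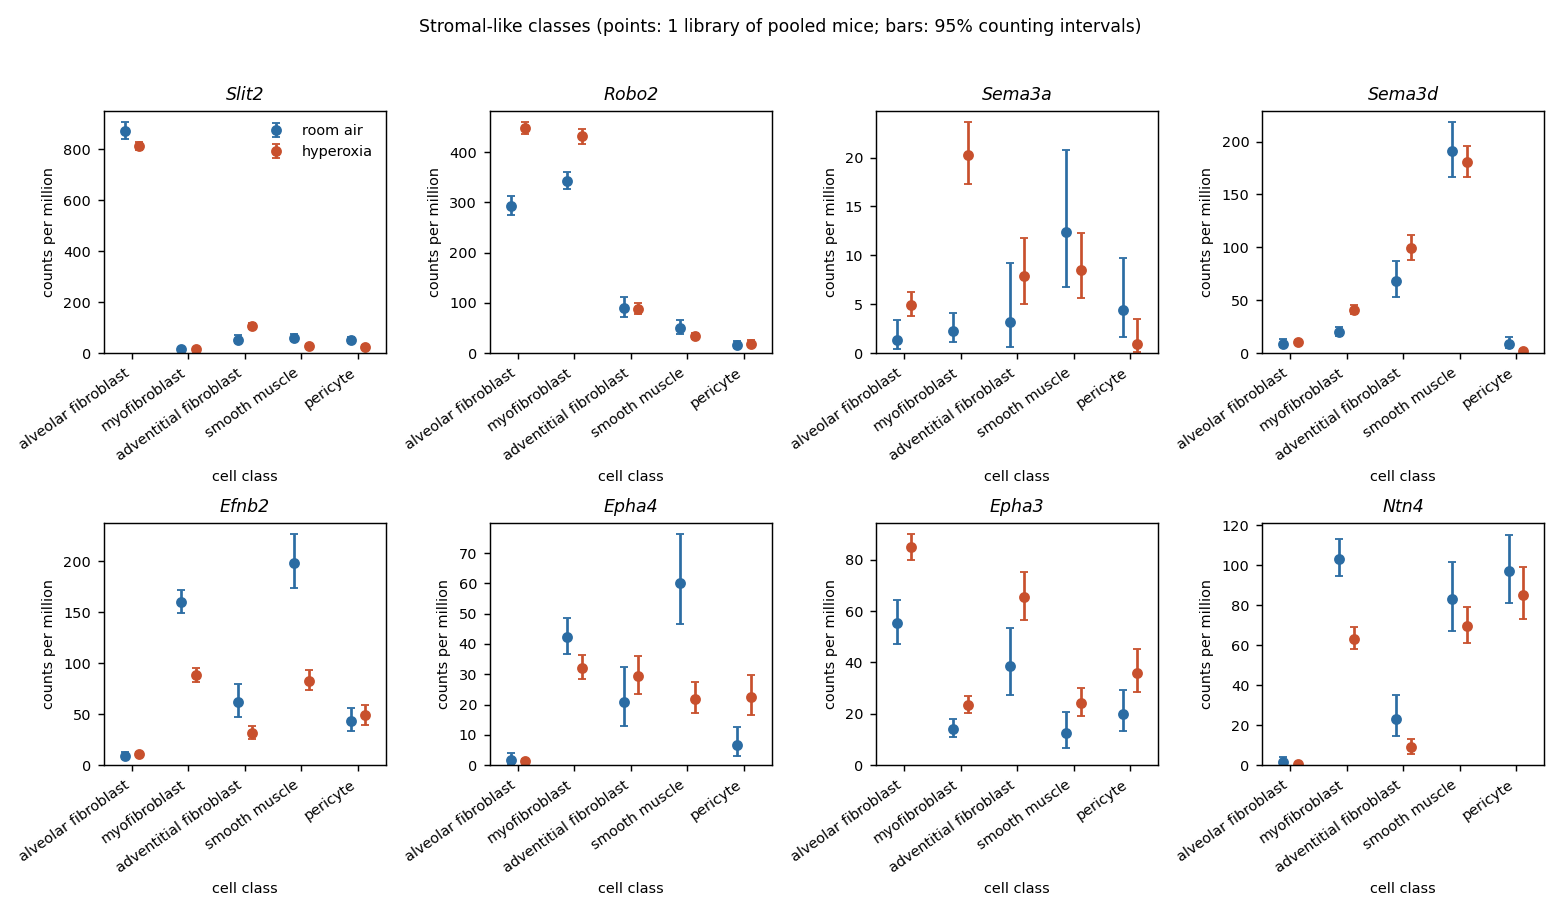
Levels (CPM) of 8 guidance genes in the 5 stromal types of the room air and hyperoxia libraries, with 95% counting intervals as bars. Slit2 stands at 872 and 813 CPM in alveolar fibroblast-like cells and at no more than 104 CPM in the other types, and Sema3a is 2.304 against 20.2 CPM in myofibroblast-like cells.

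Netrins were genes of contractile and vascular cells. Ntn4, a laminin-related netrin of basement membranes, was 1 of the 2 genes 2-fold lower in the stromal lineage, at 64.8 CPM in the room air library [60.2 to 69.6] and 32.3 CPM in the hyperoxia library [30.3 to 34.4], log2 -1.003 [-1.14 to -0.86]. It had 103 and 63.2 CPM in myofibroblast-like, 97.1 and 85.3 CPM in pericyte-like and 83.04 and 69.5 CPM in smooth muscle-like cells, none of them past 2-fold. Over the endothelial lineage Ntn4 was higher instead, at 23 and 45.8 CPM, a ratio of 1.99. With the types at their room air shares of UMIs, that ratio was 1.38. Ntn4 was higher in gCap-like cells, at 8.04 and 17.9 CPM (log2 1.16 [0.64 to 1.70]), and in artery-like cells, at 65.00 and 111 CPM. In aCap-like cells it was level, at 66.8 and 68.4 CPM. The gCap-like level was under 10 CPM in room air and passed the filter through hyperoxia. The artery-like level in hyperoxia was the highest of any compared type, though its interval met that of pericyte-like cells. The stromal ratio ran from -1.16 to -0.98 over the alternatives. Ntn1, the secreted netrin-1, led in myofibroblast-like cells of room air at 145 CPM, with 94.6 CPM in hyperoxia, and in artery-like cells it stood at 93.4 and 147 CPM. Unc5b, the netrin receptor of endothelial tip cells and arteries, had 197 and 118 CPM in artery-like, 102 and 97.7 CPM in aCap-like and 61.2 and 65.4 CPM in gCap-like cells. In the stroma Unc5b was 102 and 157 CPM in myofibroblast-like and 11.5 CPM in the room air library [6.11 to 19.6] and 24.9 CPM in the hyperoxia library [19.8 to 30.9] in smooth muscle-like cells, log2 1.12 [0.26 to 2.09] (0.27 to 1.19 over the alternatives). Unc5c was read mostly in alveolar fibroblast-like cells at 199 and 136 CPM. The leading type of Unc5b, arterial in room air, was the myofibroblast-like class in hyperoxia.

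Among the guidance genes past the filter, stromal semaphorins included the largest single ratio in any compared type. That gene, Sema3a, was under 10 CPM in room air and passed the filter through its hyperoxia level, which favours a large ratio. Sema3a (chromosome 5, bases 13125414 to 13602565, forward strand), first described as collapsin, a repellent of growth cones, was read in myofibroblast-like cells at 2.304 CPM in the room air library [1.15 to 4.12] and 20.2 CPM in the hyperoxia library [17.3 to 23.6], from 11 and 164 UMIs, log2 3.14 [2.26 to 4.17]. In the myofibroblast-like cluster of 377 cells, its 242 hyperoxia cells had 40.9 CPM and its room air cells 3.33 CPM, and the 368 hyperoxia cells of the cluster of 375 had 6.42 CPM. AT1-like cells (alveolar type 1 epithelium) carried far more Sema3a, and 6 of their marker genes summed to 28.5 and 30.4 CPM in the myofibroblast-like cells. With the cells that held a UMI of any of those 6 genes left out, the log2 ratio was 3.66. Sema3d, a secreted class 3 semaphorin, was highest in smooth muscle-like cells, with 191 and 181 CPM, and had 68.2 and 99.5 CPM in adventitial fibroblast-like cells and 19.9 CPM in the room air library [16.1 to 24.3] and 40.9 CPM in the hyperoxia library [36.6 to 45.5] in myofibroblast-like cells, log2 1.04 [0.70 to 1.38]. With each library clustered by itself the last ratio was -0.70. Sema3f was lower in myofibroblast-like cells, at 17.2 CPM in the room air library [13.7 to 21.3] and 4.81 CPM in the hyperoxia library [3.42 to 6.58], log2 -1.83 [-2.42 to -1.27]. Sema3c was also a gene of myofibroblast-like (445 and 596 CPM) and smooth muscle-like cells (435 and 479 CPM), and its 6.33 and 13.7 CPM in alveolar fibroblast-like cells made it 2-fold higher there (log2 1.11 [0.43 to 1.88]). The B-like levels of Sema3c were 5.54 and 33.3 CPM, close to the alveolar fibroblast-like level in room air and above it in hyperoxia, and the alveolar fibroblast-like ratio ran from 0.32 to 1.12 over the alternatives.

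Of the plexins, Plxna4 and Plxnd1 passed 2-fold in a stromal type, both lower in adventitial fibroblast-like cells. Plxnc1, the Sema7a receptor, led in myofibroblast-like cells at 152 and 169 CPM. Plxna4 had 161 and 126 CPM in myofibroblast-like cells and 23.1 and 10.6 CPM in adventitial fibroblast-like cells, log2 -1.13 [-1.96 to -0.27], a ratio that turned to 1.41 without doublet removal and to 0.26 with each library clustered by itself. Plxnd1 was lower in adventitial fibroblast-like cells, at 61.9 CPM in the room air library [47.1 to 79.9] and 24.2 CPM in the hyperoxia library [18.9 to 30.5], log2 -1.36 [-1.87 to -0.83]. Over the stromal types, 1 of 25 genes was 2-fold higher in alveolar fibroblast-like cells (2.64% of all genes) and 0 lower (1.69%), and 2 of 29 were higher (1.86%) and 1 lower (1.46%) in myofibroblast-like cells. In adventitial fibroblast-like cells 0 of 31 were higher (2.49%) and 2 lower (2.24%). In smooth muscle-like cells 1 of 31 was higher (4.07%) and 4 lower (2.45%), namely Epha4, Efnb2, Ephb2 and Slit2. In pericyte-like cells 1 of 22 was higher (2.95%) and 1 lower (2.5%), and the higher one, Epha4, passed the filter through its hyperoxia level. With each library clustered by itself, the 4 lower ratios of smooth muscle-like cells all turned direction.

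By size of ratio, in alveolar fibroblast-like cells the 5 largest ratios belonged to Sema3c, Plxna2, Epha3, Robo2 and Sema5a (log2 1.11 to 0.38) and the 5 smallest to Efna4, Sema6a, Ephb4, Ephb3 and Epha7 (log2 -0.80 to -0.65). In myofibroblast-like cells the 5 largest ratios belonged to Sema3a, Sema3d, Sema6d, Epha3 and Sema5a (log2 3.14 to 0.65) and the 5 smallest to Sema3f, Efnb2, Sema6a, Ntn4 and Ntn1 (log2 -1.83 to -0.62). In adventitial fibroblast-like cells the 5 largest ratios belonged to Slit2, Epha3, Slit3, Sema3d and Epha4 (log2 0.99 to 0.48) and the 5 smallest to Plxnd1, Plxna4, Efnb2, Ephb4 and Plxnc1 (log2 -1.36 to -0.76). Epha3 was among the 5 largest ratios of each of the 5 stromal types, and Efnb2 among the 5 smallest of 3 of them. In smooth muscle-like cells the 5 largest ratios belonged to Unc5b, Epha3, Slit3, Sema3b and Efna2 (log2 1.12 to 0.20) and the 5 smallest to Epha4, Efnb2, Ephb2, Slit2 and Sema4c (log2 -1.46 to -0.95). In pericyte-like cells the 5 largest ratios belonged to Epha4, Sema4c, Epha2, Epha3 and Slit3 (log2 1.75 to 0.81) and the 5 smallest to Slit2, Ephb4, Plxna1, Efnb1 and Ephb3 (log2 -1.02 to -0.23).

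The epithelium was set apart by 3 class 3 semaphorins, which were genes of AT1-like cells (alveolar type 1, the flat cells of gas exchange). Sema3e, the ligand of plexin D1, had 899 CPM in the room air library [827 to 976] and 921 CPM in the hyperoxia library [868 to 977] there and Sema3a 527 CPM in the room air library [472 to 587] and 593 CPM in the hyperoxia library [551 to 638]. Sema3b had 210.2 and 253 CPM. No compared type other than AT1-like cells came near these levels: the next highest level of Sema3e was 16.1 CPM and 13.03 CPM, in alveolar macrophage-like cells. The levels in AT1-like cells differed by less than 1.5-fold between the libraries, while over the epithelial lineage Sema3e was 148 and 89.1 CPM and Sema3a 75.1 and 55.9 CPM. Of 16 genes past the filter in AT1-like cells (62 and 133 cells) 0 passed 2-fold, against 2.24% higher and 1.67% lower over all genes. There the 5 largest ratios belonged to Epha2, Plxna4, Sema3b, Plxna2 and Plxnb2 (log2 0.64 to 0.23) and the 5 smallest to Sema3f, Efna1, Plxna1, Efnb1 and Plxnb1 (log2 -0.63 to -0.37). Plxnb1, a receptor of class 4 semaphorins, led in AT1-like cells at 92.6 and 71.8 CPM, and Efna1 was 185 and 120.5 CPM there.

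The AT2-like cells (alveolar type 2, the surfactant producers) led in both libraries for 2 of the genes past the filter. Epha7 was read at 81.9 and 61.6 CPM, against at most 18.8 and 10.2 CPM in any other compared type. Sema4f was read at 32.2 and 21.98 CPM, and the next levels were 10.98 CPM in AT1-like cells of room air and 10.1 CPM in T, NK and ILC-like cells of hyperoxia. Of 21 genes, 4 were 2-fold lower in AT2-like cells (1.97% of all genes) and 0 higher (1.23%): Sema5a (20.4 and 9.01 CPM, log2 -1.18 [-1.67 to -0.66]), Slit3 (24.5 and 11.2 CPM, log2 -1.13 [-1.58 to -0.66]), Efnb1 (45.6 and 21.5 CPM, log2 -1.09 [-1.41 to -0.75]) and Ephb4 (20.8 and 10.3 CPM, log2 -1.02 [-1.50 to -0.52]). These 4 are low in AT2-like cells and high in endothelium or stroma. A sum of 7 endothelial and stromal marker genes in AT2-like cells was 93.7 and 115 CPM, higher in hyperoxia, and the part of free RNA in the 4 values was not tested. Slit3 stayed past 2-fold over the alternatives, while Sema5a (-1.27 to -0.84), Efnb1 (-1.204 to -0.92) and Ephb4 (-1.21 to -0.90) did not in some. By size, the 5 largest ratios belonged to Sema3c, Plxna4, Epha4, Plxnb2 and Ephb3 (log2 0.61 to 0.13) and the 5 smallest to Sema5a, Slit3, Efnb1, Ephb4 and Efnb2 (log2 -1.18 to -0.93). Efnb2 was the 1 gene 2-fold lower over the epithelial lineage, at 27 CPM in the room air library [22.7 to 31.9] and 13.1 CPM in the hyperoxia library [11.2 to 15.1], log2 -1.05 [-1.38 to -0.72], against 11.1 and 16.00 CPM in B-like cells, so the room air level lay above that of B-like cells and the hyperoxia level below it. Taken as a mean over single cells, the lineage ratio of Efnb2 was 0.12. In AT2-like cells it was 16.7 and 8.76 CPM and in AT1-like cells 28.2 and 19.8 CPM.

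In the immune cells few guidance genes were read, among them the class 4 semaphorins Sema4a, Sema4b and Sema4d. Sema4a was highest in neutrophil-like cells, at 163 and 212 CPM, followed by classical monocyte-like cells at 100.5 and 91.4 CPM. In nonclassical monocyte-like cells it was 56.03 and 25.3 CPM, log2 -1.15 [-2.13 to -0.28]. Sema4d, a semaphorin that binds plexin B1 and the lymphocyte protein CD72, led in nonclassical monocyte-like cells at 188 and 163 CPM. In T, NK and ILC-like cells it was 86.3 and 88.3 CPM. Sema4b led in B-like cells, at 98.4 and 100.5 CPM, and was 19.5 CPM in the room air library [13.96 to 26.6] and 7.11 CPM in the hyperoxia library [5.12 to 9.61] in alveolar macrophage-like cells, log2 -1.46 [-2.12 to -0.80]. The alveolar macrophage-like cells were mostly a cluster of 327 cells with 312 from hyperoxia and one of 115 with 110 from room air. Plxnb2, the receptor of Sema4c, was 129 and 168 CPM in interstitial macrophage-like and 140.1 and 165 CPM in nonclassical monocyte-like cells. Plxna4os1, an antisense RNA that lies within the bounds of Plxna4 on the opposite strand, led in nonclassical monocyte-like cells at 37.9 and 29.2 CPM. How the counting handled reads of overlapping genes is not given in the sources used here.

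Across the immune types, 0 of 4 genes passed 2-fold in neutrophil-like cells (all genes 3.08% higher and 4.49% lower), 0 of 4 in classical monocyte-like cells (2.22% and 1.41%) and 0 of 7 in interstitial macrophage-like cells (2.45% and 1.58%). In alveolar macrophage-like cells 0 of 7 were higher (1.34%) and 1 was lower (7.25%). In nonclassical monocyte-like cells 0 of 5 were higher (1.51%) and 1 was lower (1.72%). In the alveolar macrophage-like cells, the 5 largest ratios belonged to Plxnb2, Plxna1, Sema3e, Sema4a and Plxnc1 (log2 0.07 to -0.47) and the 5 smallest to Sema4b, Plxnd1, Plxnc1, Sema4a and Sema3e (log2 -1.46 to -0.31). The largest ratio in interstitial macrophage-like cells was that of Plxnd1 (log2 0.62) and the smallest that of Sema4a (log2 -0.99). In neutrophil-like cells the 4 ratios ran from log2 -0.55 for Sema3c to 0.38 for Sema4a, over Sema4d and Plxnc1. In classical monocyte-like cells they ran from -0.42 for Sema4d to 0.02 for Plxnd1, over Plxnb2 and Sema4a. In nonclassical monocyte-like cells the highest of 5 was Plxnb2, at log2 0.24, with Sema4d, Plxna4os1 and Plxnd1 between it and Sema4a.

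Sema3c was also the 1 gene 2-fold higher over the lymphocytes, at 4.81 CPM in the room air library [3.05 to 7.22] and 23.6 CPM in the hyperoxia library [20.9 to 26.6], log2 2.297 [1.68 to 2.98]. In B-like cells it was 5.54 CPM in the room air library [2.86 to 9.68] and 33.3 CPM in the hyperoxia library [28.3 to 38.9], from 12 and 156 UMIs, and in T, NK and ILC-like cells 5.24 and 17.3 CPM, log2 1.73 [0.83 to 2.77]. Within the B-like cells of hyperoxia, 1 cluster of 65 cells led by Fmo2 had 184 CPM and the other clusters 15.7 to 32.3 CPM. The capillary endothelium of the same library held this RNA at high levels, and 8 endothelial marker genes summed to 324 and 427 CPM in B-like cells (log2 0.40) and to 206 and 251 CPM in T, NK and ILC-like cells (log2 0.28), with none of the 8 at 0. Pecam1 was the largest part of these sums, at 174.1 and 210.5 CPM in B-like and 114.9 and 113 CPM in T, NK and ILC-like cells. Whether lymphocytes themselves express Pecam1 was not tested, so the sums do not measure endothelial RNA alone. Of the other marker genes, Tie1 alone was lower in hyperoxia in these types. The part of endothelial RNA in lymphocyte Sema3c was not tested. The lineage ratio turned to -1.13 with each library clustered by itself and to -0.20 at the stricter barcode filter, while the B-like ratio ran from 1.89 to 2.96. Epha2 was likewise 2-fold higher in B-like cells at 6.93 and 14.9 CPM (log2 1.11 [0.29 to 2.02], from 15 and 70 UMIs), so 2 of 9 genes were called there, against 2.46% of all genes, and 0 were lower, against 0.43%. Both lay under 10 CPM in room air and passed the filter through their hyperoxia levels, as Sema3c did in the other lymphocyte classes. A gene that passes in this way tends to a higher ratio, so these shares do not measure a rise. Without doublet removal the Epha2 ratio was 0.75. In T, NK and ILC-like cells 1 of 6 was higher, against 0.905%, and 0 lower, against 0.713%. The other ratios in B-like cells ran from log2 -0.08 for Plxnb2 to 0.72 for Plxnd1, over Plxnc1, Sema4b, Sema4d, Sema7a and Efnb2. In T, NK and ILC-like cells they ran from -0.21 for Plxnc1 to 0.48 for Sema4b, over Plxnd1, Sema4d and Sema4a.

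The lineage values above mix the level within types with the share of each type, and these shares differed between the libraries. In endothelial-like cells, gCap-like cells held 61.4% of the UMIs of room air but 38.0% of those of hyperoxia, and aCap-like cells 14.2% and 41.0%. In stromal-like cells, alveolar fibroblast-like cells held 25.8% and 43.3%, and myofibroblast-like cells 41.1% and 27.2%. In epithelial-like cells, club-like cells held 33.7% and 0.394%, AT2-like cells 48.4% and 85.2%, and AT1-like cells 12.6% and 8.70%. The levels of hyperoxia were therefore also computed with the types at their room air shares. Sema7a, chiefly an aCap gene, then stood at 119 CPM, 1.96 times the room air level instead of 2.97 times. Plxna2 went from 2.46 to 1.82 times and Plxna4 from 2.11 to 1.67 times, while Sema5a kept 3.16 of 3.55 times. Of the 4 endothelial genes called, Sema5a alone stayed past 2-fold at fixed shares, and Sema3c came to 2.02 times.

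In the stroma, the higher lineage level of Slit2 was gone at fixed shares, with 236 CPM and a ratio of 0.924 against 1.47 before. Epha3 had a ratio of 1.66 against 2.05, Efnb2 of 0.566 against 0.450, and Ntn4 of 0.686 against 0.499. All 3 kept their direction and lay within 2-fold. No such value is given for the epithelium, because its club-like cells were 25 in room air and 4 in hyperoxia. Dissociation as well as tissue makeup sets how many cells of a type are captured, and the 2 cannot be told apart here.

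**Figure D5:**
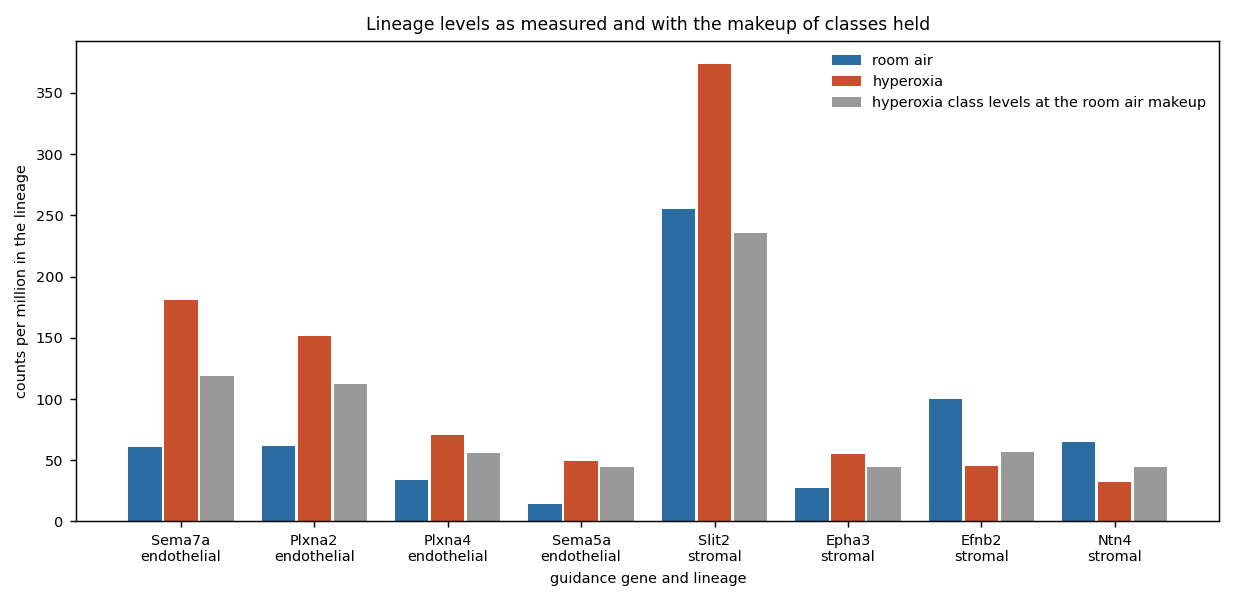
Lineage levels (CPM) of 8 pairs of a guidance gene and a lineage in room air, in hyperoxia, and in hyperoxia with each type at its room air share of UMIs, as bars from 0. The third bar of Slit2 falls to 236 CPM, near its room air bar of 255 CPM, while that of Sema5a stays at 44.2 CPM against 13.97 CPM.

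Of 32 further genes of these pathways (co-receptors, other receptors and intracellular effectors), 0 of 19 past the filter were 2-fold higher in endothelial-like cells (1.82% of all genes) and 1 was lower (3.17%), Tiam1, a Rac exchange factor, at 44.6 and 20.1 CPM (log2 -1.15 [-1.35 to -0.94]). In stromal-like cells 0 of 21 were higher (1.62%) and 1 was lower (1.3%), Met, the receptor of hepatocyte growth factor and a partner of B-class plexins, at 17.5 and 5.46 CPM (log2 -1.68 [-1.98 to -1.37]). In epithelial-like cells 0 of 16 were called (1.1% higher and 4.52% lower). In myeloid-like cells 1 of 18 was lower (2.47%), Flrt3, an adhesion protein that binds Unc5 receptors, at 20.7 and 9.46 CPM, and in lymphocyte-like cells 1 of 15 was higher (0.946%), again Tiam1, at 7.32 and 15.6 CPM. As summed over lineages, Tiam1 was thus lower in endothelium and higher in lymphocytes of the hyperoxia library. Of these genes, 0 of 17 were 2-fold lower in gCap-like cells (2.49% of all genes) and 0 of 16 in aCap-like cells (2.58%). In artery-like cells it was 0 of 13 (2.02%). No value at fixed shares of the types was computed for Tiam1. Its lymphocyte level was under 10 CPM in room air and passed the filter through hyperoxia, which favours a large ratio. Nrp1, the neuropilin that class 3 semaphorins share with vascular endothelial growth factor, was 1270.4 and 1621 CPM in endothelial-like cells and 192 CPM in the room air library [177 to 208] and 587 CPM in the hyperoxia library [574 to 600.2] in alveolar fibroblast-like cells, log2 1.61 [1.49 to 1.74]. Nrp2 was 25.2 and 59.97 CPM in adventitial fibroblast-like cells, log2 1.25 [0.63 to 1.93], and 236 and 171 CPM in vein-like cells. Neo1, which encodes the netrin receptor neogenin, was level in alveolar fibroblast-like cells at 198 and 207 CPM.

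The other 17 of the 65 genes were under the filter in every class, and their low counts carry no statement on expression. In total UMIs over both libraries they were Sema6b with 447, Unc5a with 399, Sema6c with 396, Ephb6 with 382, Plxna3 with 309, Efnb3 with 275, Ephb1 with 261, Sema4g with 175. Fewer were read of Efna3 (131), Plxnb3 (88), Sema5b (87), Unc5d (71), Epha8 (62), Robo3 (30), Slit1 (20), Plxna4os2 (17) and Ntn5 (43). Of the genes with a matching symbol, Epha10 had 3 UMIs, and Plxna4os3, Epha6 and 2 further entries named Ntn5 had 0 or 1, all under the minimum of 10.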

How the data were processed

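Gene counts were deposited by the authors as raw UMI counts per gene and barcode, 1 matrix for room air and 1 for hyperoxia, each from 8 pooled mice. Per the labels and the study's methods, reads were aligned and counted with Cell Ranger 6.1.1. The matrix headers name 3.1.0 and the submitters' processing notes 2.1.1, with the build mm10, so these sources differ on the version.

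A barcode entered if 500 genes or more were read and mitochondrial UMIs made up 20% or less. Likely doublets were ranked against simulated pairs and removed at 0.8% per 1000 barcodes in each library. Both libraries were normalised, reduced to 2000 variable genes and 30 components and clustered together (Leiden, resolution 1, 20 neighbours) without the guidance genes, the other pathway genes, or sex-linked and mitochondrial genes. Clusters were called "X-like" from fixed markers. The scoring rule that turned markers into names was set after the clusters were seen. Clusters led by genes of another lineage or of dividing cells stayed unnamed. Classes with under 50 cells in a library were not compared.

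UMIs were summed per class and library and divided by the class total (CPM). With 1 library per group no test was possible. Intervals are exact Poisson or conditional binomial ones at 95%. A gene counted as higher or lower at a fold of 2 if its mean was at least 10 CPM with at least 50 UMIs in the class. A gene under 10 CPM in 1 library could pass through the other library alone, and such a gene tends to a large ratio. Guidance genes past 2-fold that passed through hyperoxia were Ntn4 in gCap-like, Epha4 in pericyte-like, Sema3a in myofibroblast-like and Epha2 in B-like cells. Sema3c did so in alveolar fibroblast-like cells and the lymphocyte classes. Those that passed through room air were Sema3a in aCap-like, Sema3f in myofibroblast-like, Sema4b in alveolar macrophage-like and Sema5a in AT2-like cells. The text names each gene past that filter in a class, those past 2-fold in a lineage, the 5 largest and 5 smallest ratios of each type, and the totals of genes under the filter. Where a type had under 10 genes past the filter, the 5 largest and 5 smallest share genes. Genes, lists and the fold were chosen with earlier results of these data known. The interval script was tested on simulated counts. Alternatives were stricter barcode filters, no or double doublet removal, other resolutions, separate clustering, other scalings, filters and folds. Those chosen after seeing the data were removal of shared barcodes, of unnamed clusters and of cells with AT1 genes, and the fixed class shares. Coordinates are from GENCODE M21 (GRCm38). Software was Python 3.11.15, numpy 2.4.6, scipy 1.17.1, scikit-learn 1.9.0, leidenalg 0.10.2 and matplotlib 3.10.9.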

Additional observations from a re-analysis of the deposited data

Results flagged for a closer look

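A set of 5 guidance genes was past 2-fold in opposite directions in different cell types. With 1 library per condition none of these differences between types was tested. Epha4 was lower in smooth muscle-like cells of the hyperoxia library (log2 ratio -1.46) and higher in pericyte-like cells (1.75). Plxna4 was higher in artery-like cells (1.31) and lower in adventitial fibroblast-like cells (-1.13). Sema3a was lower in aCap-like cells (-1.37) and higher in myofibroblast-like cells (3.14). Sema3c was higher in B-like (2.59), T, NK and ILC-like (1.73), aCap-like (1.48) and alveolar fibroblast-like cells (1.11) and lower in artery-like cells (-1.79). It is not expected in B-like cells, and in hyperoxia its alveolar fibroblast-like level was below the B-like one. Sema5a was higher in gCap-like (1.72) and aCap-like cells (1.93) and lower in AT2-like cells (-1.18). The smooth muscle-like value of Epha4 and the adventitial fibroblast-like value of Plxna4 turned direction under some alternatives of processing, given in the next section. Other ratios fell under 2-fold in 1 or more alternatives. At their weakest, Sema3c was -0.44 in artery-like and 0.32 in alveolar fibroblast-like cells, Sema3a -0.73 in aCap-like and Sema5a -0.84 in AT2-like cells. For Sema5a, the AT2-like values were 20.4 and 9.01 CPM and the B-like values 6.00 and 10.0 CPM, so in hyperoxia the AT2-like level was no higher than the B-like one.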

How the results depend on the processing

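The log2 ratios of the 43 gene and class pairs past 2-fold were recomputed under 11 or 12 alternatives each, which gave 480 values. Of these, 438 fell inside the counting interval, 24 outside it in the same direction and 18 turned direction. Of the pairs, 19 stayed past 2-fold under every alternative run and 24 fell below it in 1 or more. The cause of these changes was not tested. With each library clustered and named by itself, the ratio turned direction for Sema3c in lymphocyte-like cells (-1.13), Sema3d in myofibroblast-like cells (-0.70), Plxna4 in adventitial fibroblast-like cells (0.26), Slit2 in pericyte-like cells (0.43), and, in smooth muscle-like cells, Epha4 (0.57), Ephb2 (0.44), Slit2 (1.05) and Efnb2 (0.059). At resolution 2 it turned for Plxna4 in adventitial fibroblast-like cells (1.55) and for Epha4 (0.83) and Slit2 (0.52) in smooth muscle-like cells. Without doublet removal the same 3 turned, to 1.41, 0.74 and 1.80, and with double the rate Plxna4 stood at 0.73. Sema3c in lymphocyte-like cells was -0.20 both at the stricter barcode filter and at resolution 0.5, and Efnb2 in epithelial-like cells was 0.12 as a mean over single cells.

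The counts of genes past 2-fold were small, and many alternatives moved them past 1.5 times. Without the low-value filter, the higher and lower counts were 11 and 11 in endothelial-like, 6 and 8 in stromal-like, 5 and 6 in epithelial-like, 9 and 12 in myeloid-like and 20 and 2 in lymphocyte-like cells. At a fold of 1.5 they were 7 and 2 in endothelial-like cells, with 7 lower in stromal-like, 1 higher and 6 lower in epithelial-like and 1 lower in myeloid-like cells. At a mean of at least 50 CPM, 0 were higher and 1 lower in stromal-like cells, 0 lower in epithelial-like and 0 higher in lymphocyte-like cells. Without doublet removal, 0 were higher and 1 lower in stromal-like, 1 higher in myeloid-like and 3 higher in lymphocyte-like cells. With double the rate, 8 were lower in epithelial-like and 3 in myeloid-like cells. The stricter barcode filter gave 1 lower in myeloid-like cells and 0 higher and 3 lower in lymphocyte-like cells. Resolution 0.5 gave 0 lower in epithelial-like cells and 0 higher and 3 lower in lymphocyte-like cells. Separate clustering gave 1 higher in epithelial-like cells and 0 higher and 6 lower in lymphocyte-like cells. Without mitochondrial, ribosomal protein and haemoglobin genes, 0 were higher in stromal-like cells and 1 higher and 0 lower in epithelial-like cells. The median-of-ratios factor, and leaving out shared barcodes, each gave 1 lower in stromal-like cells. A mean over single cells gave 2 lower in epithelial-like cells, and leaving out unnamed clusters gave 1 higher there. The counts of 4 higher and 0 lower in endothelial-like cells changed past 1.5 times only without the filter and at a fold of 1.5. No paired analysis was possible because each condition was 1 library with no replicate. Depth limits the low genes of small classes most, and the intervals cover counting error only.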
